A study of Mus musculus with 4 samples.

Results

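Cholesterol synthesis and SREBP2 target genes were followed in mouse embryonic stem cells (ESCs) given lactate. The members are 31 genes chosen by symbol, with earlier results of these data known, of 55335 genes in the deposited tables. They cover sterol sensing, the enzymes that build cholesterol, sterol transport and storage, and the liver X receptor (LXR) arm. RNA-seq was performed on the mouse ESC line AB2.2, and 2 control libraries were compared with 2 from cells that received lactate at 50 mM for 24 h. Both groups were grown on mouse embryonic fibroblast (MEF) feeders, in a medium that held leukemia inhibitory factor at 1000 U/ml, serum at 15%, the MEK inhibitor PD0325901 at 1 μM and the GSK3 inhibitor CHIR99021 at 3 μM. The labels do not say whether the 2 libraries of a group came from separate cultures, so p-values measure only the spread between these libraries, which may be technical. The sources used here name no step that removed the feeders, and in bulk RNA fewer cells of a type cannot be told apart from less RNA per cell.

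Cells make cholesterol from acetyl-CoA through mevalonate, isoprenoids, squalene and a series of sterols. SREBP2, the transcription factor encoded by Srebf2, activates the genes of this route. When membranes hold enough sterol, SCAP and the INSIG proteins keep SREBP2 in the endoplasmic reticulum. When sterol runs short, SCAP carries it to the Golgi, where it is cut and released to the nucleus. LXR proteins are nuclear receptors for oxysterols and act on the opposite side, on genes for cholesterol efflux.

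Reads counted on genes numbered between 18067562 and 19077885 per library, and every member had between 164 and 7150 reads in each library. All 31 members passed the filter on low counts, which left 18661 genes. Mitochondrial transcripts took 5.48% of the counts in control replicate 1 and 5.72% in lactate replicate 1, but 2.43% and 2.82% in the libraries numbered 2, so this share went with the replicate number. The 12 ESC markers were all present, led by Dppa5a and Pou5f1, and none was called by edgeR. At an unadjusted p-value under 0.05 in edgeR, 2 were lower and 4 higher, against 11.4% of all genes tested lower and 11.7% higher. Their summed FPKM was 4381 and 6215 in control and 4865 and 7894 in lactate libraries, with the lactate mean at 120.4% of control. All 18 feeder markers had reads in every library, led by Vim and Col1a1, and their summed FPKM was 337.4 and 469.4 in control and 281.8 and 339.3 in lactate libraries. The lactate mean of this sum was 77.0% of control, and the ranges overlapped only in that lactate replicate 2 lay above control replicate 1. No feeder marker was called by edgeR. At an unadjusted p-value under 0.05 in edgeR, 3 were lower and 2 higher, against the same 11.4% and 11.7% of all genes tested. DESeq2 called 2, Vim and Col3a1, as lower, where it called 3.13% of all genes as lower. The part of feeder RNA in the values below was not tested.

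Promoters are shown for Hmgcs1, Insig1 and Mvd, which fell with lactate, and for Abca1, which had the highest fold change of the members. The 250 bases before each start were read from RefSeq on GRCm38.p6, in the direction of the gene, and for Insig1 only the 201 bases upstream of its GENCODE start are printed. Capitals mark the letters found on either strand for a sterol regulatory element (TCACNCCAC), an NF-Y box (CCAAT), an Sp1 box (GGGCGG), an E-box (CACGTG) and an LXR response element (GGTNA, any 5 bases and GGTNA). Hmgcs1 is shown from chr13:119690101-119690350 on the plus strand, Insig1 from chr5:28071162-28071362 on the plus strand, Mvd from chr8:122443423-122443672 on the minus strand and Abca1 from chr4:53159896-53160145 on the minus strand.
Hmgcs1: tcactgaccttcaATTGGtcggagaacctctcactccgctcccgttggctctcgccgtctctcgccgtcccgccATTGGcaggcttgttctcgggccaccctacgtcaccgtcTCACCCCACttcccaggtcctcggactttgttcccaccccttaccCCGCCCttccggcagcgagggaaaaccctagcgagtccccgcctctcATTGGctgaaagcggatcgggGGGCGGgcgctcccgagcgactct
Insig1: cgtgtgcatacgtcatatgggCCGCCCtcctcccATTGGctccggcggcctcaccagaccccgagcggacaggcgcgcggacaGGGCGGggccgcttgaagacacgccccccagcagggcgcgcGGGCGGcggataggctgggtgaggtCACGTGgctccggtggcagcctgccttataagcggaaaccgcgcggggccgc
Mvd: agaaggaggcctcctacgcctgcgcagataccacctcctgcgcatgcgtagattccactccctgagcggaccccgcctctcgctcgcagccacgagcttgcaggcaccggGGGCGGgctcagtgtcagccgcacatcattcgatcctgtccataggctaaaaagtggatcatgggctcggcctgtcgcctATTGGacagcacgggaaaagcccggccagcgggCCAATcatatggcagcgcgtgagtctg
Abca1: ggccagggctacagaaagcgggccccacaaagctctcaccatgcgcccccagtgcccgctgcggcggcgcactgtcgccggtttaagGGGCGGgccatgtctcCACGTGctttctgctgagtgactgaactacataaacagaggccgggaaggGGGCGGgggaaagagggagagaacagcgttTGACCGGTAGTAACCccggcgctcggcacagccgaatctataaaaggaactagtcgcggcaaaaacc

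RefSeq promoters were matched for 26 of the 31 members, and Fdft1, Stard4, Sqle, Fdps and Npc1 had no entry. The sterol regulatory element was found in Hmgcs1 alone among these 26, from base -137 to base -129, against 1.05% of all 32851 promoters of that length and 1.33% of the 12065 tested genes with a promoter. The LXR element was found in Abca1 alone, from base -67 to base -53, against 0.621% of all promoters and 0.506% of those genes. CCAAT was found in 22 of the 26, with Abca1, Acat2, Nr1h2 and Scap as the members without it, against 33.8% of all promoters and 40.5% of those genes. GGGCGG was also found in 22 of the 26, against 32.7% of all promoters and 60.8% of those genes, and CACGTG in 6, against 6.02% and 9.55%. Matches to different motifs did not overlap in these members. Functional elements vary in their letters, so these matches only describe the windows.

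With lactate, edgeR called 4 members as lower and none as higher. Insig1, Hmgcs1, Fdft1 and Mvd fell at a Benjamini-Hochberg adjusted p-value under 0.05 (quasi-likelihood test of edgeR), where 0.423% of all genes tested were called as lower and 0.568% as higher. All 4 fell by more than 2-fold, and 0.348% of all genes tested were both called as lower and over 2-fold lower. Below, levels are CPM, reads per 1000000 after TMM scaling of the libraries, fold changes are lactate against control with ± 1 standard error, and adjusted p-values are those of edgeR unless DESeq2 is named. At an unadjusted p-value under 0.05, 18 of the 31 members were lower and 2 were higher, against 11.4% of all genes lower and 11.7% higher. Both lactate libraries lay below both control libraries for 19 members, where 25.9% of all genes tested did so, and above both for 6, where 27.0% did so. The median log2 fold change of the members was -0.50, and that of all genes tested was 0.01. Because the members were chosen with earlier results of these data known, these contrasts with all genes only describe them. With 2 libraries against 2, a two-sided exact permutation test cannot give a p-value below 0.333, so p-values come from the model across all genes.

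DESeq2 with an adjusted p-value under 0.05 and no limit on the fold called 11 members as lower, where it called 3.13% of all genes as lower, and Abca1 as higher, where it called 1.86% as higher. The 11 were Insig1, Srebf2, Acat2, Hmgcs1, Mvd, Idi1, Fdft1, Sqle, Lss, Msmo1 and Dhcr7. The study used DESeq2 and also asked for a change over 2-fold, and with that limit 6 members were lower (Insig1, Hmgcs1, Mvd, Idi1, Fdft1 and Msmo1), where 0.99% of all genes were, and none was higher, where 1.12% were. The 12 genes called without that limit were also the 12 members with an adjusted p-value under 0.10 in edgeR, where 3.89% of all genes were lower and 3.78% higher at that level. Leaving out 1 library moved the number called as lower by edgeR to 11 without lactate replicate 1 (2.38% of all genes lower), 9 without lactate replicate 2 (3.53%), 3 without control replicate 1 (0.199%) and 5 without control replicate 2 (0.917%). Abca1 was called as higher without lactate replicate 2 (3.6% of all genes higher). Without a filter on low counts, 14 members were called as lower and 1 as higher, where 2.89% of all genes were lower and 2.11% higher. In the RSEM expected counts 3 members were called, where 0.109% of all genes were lower. No gene was called by limma-trend on log2(FPKM + 1), in which 14 members were lower and 2 higher at an unadjusted p-value under 0.05, against 5.61% of all genes lower and 8.95% higher in that fit.

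**Figure D1:**
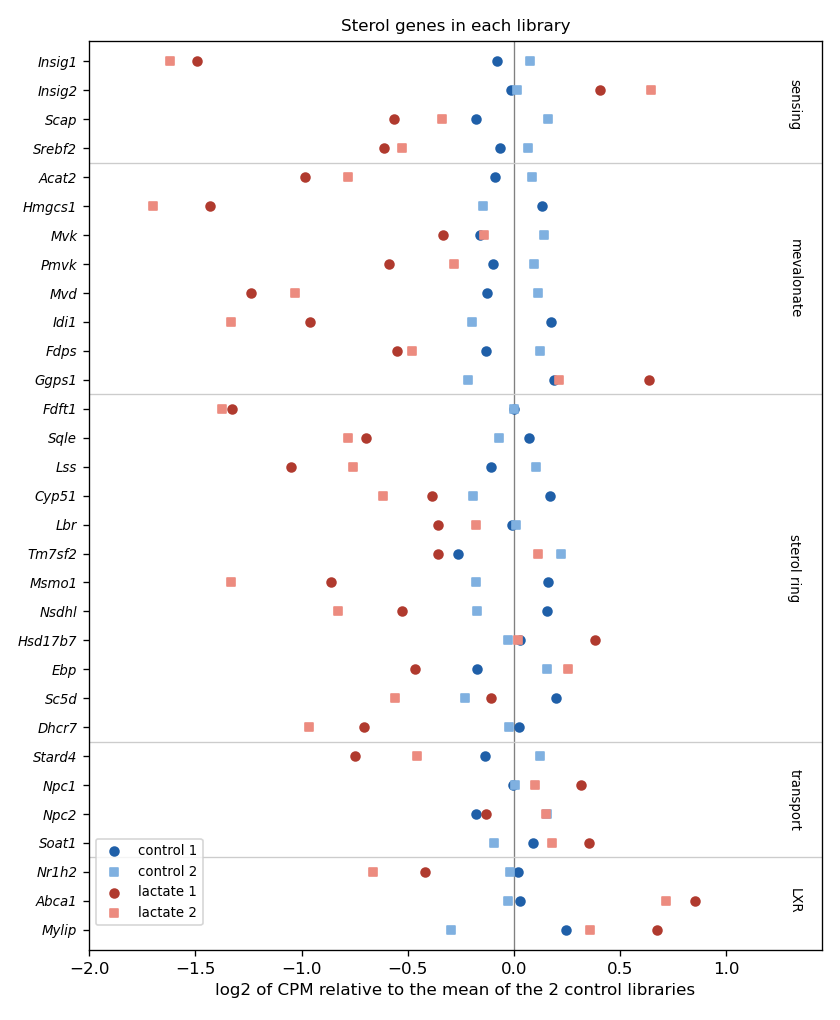
Level of each of the 31 sterol genes in each of the 4 libraries, as the log2 of its TMM-normalised CPM over the mean of the 2 control libraries (x axis), with genes on the y axis grouped by role. Blue points are control and red points are lactate libraries, circles are replicate 1 and squares are replicate 2. For 19 genes both red points lie to the left of both blue points, where 25.9% of all genes tested had both lactate libraries below both control libraries.

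Of the 4 genes for sterol sensing, edgeR called Insig1 as lower (0.423% of all genes tested), and DESeq2 called Insig1 and Srebf2 (3.13% of all genes). INSIG1 retains the SREBP2 carrier SCAP in the endoplasmic reticulum, and its gene is itself a target of SREBP2. Insig1 on chromosome 5 (GRCm38, 28071363 to 28078662) had 92.5 and 103.0 CPM in the control libraries and 34.8 and 31.8 CPM in the lactate libraries. Both lactate libraries lay far below both control libraries, and the lactate mean was 34.0% of control. Mean levels went from 97.8 ± 7.40 to 33.3 ± 2.1 CPM (SD, n = 2), 2.94-fold lower, with a log2 fold change of -1.56 ± 0.14 (adjusted p = 0.0312). The call held in 14 of 16 alternative analyses, and the exceptions were both limma-trend fits.

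Insig2 encodes the other INSIG protein and is not a classical SREBP2 target. Its levels were 19.6 and 20.03 CPM in control and 26.3 and 30.97 CPM in lactate libraries, a log2 fold change of 0.53 ± 0.16 (adjusted p = 0.129). The groups did not overlap in CPM, but in FPKM, which counts reads per length, control values of 6.50 and 11.64 overlapped with lactate values of 9.64 and 13.83. The ratio of Insig1 to Insig2 in FPKM was 6.28 and 3.86 in control and 1.54 and 1.07 in lactate libraries. These genes had the lowest and the highest fold change of the sensing genes, so the fall of their ratio adds no further result. Insig1 stayed above Insig2 in every library, by the smallest ratio in lactate replicate 2.

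Srebf2 itself, on chromosome 15 (82147181 to 82205379), had 343.8 and 376.8 CPM in control and 236.1 and 250.2 CPM in lactate libraries. Its log2 fold change was -0.57 ± 0.14, with adjusted p = 0.0861 from edgeR and 0.0425 from DESeq2. It was the member with the most reads, and its groups did not overlap. Scap, the gene for the SREBP carrier, had 55.3 and 69.8 CPM in control and 42.3 and 49.5 CPM in lactate libraries, a log2 fold change of -0.45 ± 0.17 (adjusted p = 0.187).

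The first steps of the route make mevalonate and turn it into isoprenoids. Of the 8 genes for these steps, edgeR called Hmgcs1 and Mvd as lower (0.423% of all genes tested), and DESeq2 also Acat2 and Idi1 (3.13% of all genes). At an unadjusted p-value under 0.05 in edgeR, 6 were lower and 0 higher, against 11.4% and 11.7% of all genes tested. The median log2 fold change was -0.70. Hmgcs1 on chromosome 13 (119690379 to 119708260) encodes the synthase that makes HMG-CoA, the precursor of mevalonate. Its promoter window above holds a match to the letters of the sterol regulatory element, and whether that match acts here was not tested. It had 230.2 and 190.4 CPM in control and 77.9 and 64.8 CPM in lactate libraries. Means went from 210.3 ± 28.2 to 71.4 ± 9.31 CPM (SD, n = 2), 2.95-fold lower, and the log2 fold change was -1.56 ± 0.17 (adjusted p = 0.0346). Only 0.520% of all genes tested had a lower fold change.

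Mvd on chromosome 8 (122433601 to 122443422) encodes the decarboxylase that yields isopentenyl diphosphate, the building block of isoprenoids. Its levels were 33.8 and 39.9 CPM in control and 15.6 and 18.0 CPM in lactate libraries, a log2 fold change of -1.13 ± 0.17 (adjusted p = 0.0492). Its adjusted p-value lay close to the threshold, and the call held in 8 of 16 alternatives. It was lost without control replicate 1, without control replicate 2, with upper-quartile scaling, with totals alone, at a minimum of 10 counts, with both limma-trend fits and in the RSEM expected counts, where the log2 fold change was -1.17.

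Idi1, which encodes the isomerase of isopentenyl diphosphate, had both lactate libraries below both control libraries. It had 69.5 and 53.8 CPM in control and 31.7 and 24.5 CPM in lactate libraries, with a log2 fold change of -1.13 ± 0.20 (adjusted p = 0.0553). RSEM assigned Idi1 between 1.37 and 1.62 times its raw counts, so its level differed between these ways of counting, and its log2 fold change in RSEM expected counts was -1.15. Acat2, the cytosolic thiolase that starts the route by joining acetyl-CoA, had 75.3 and 84.9 CPM in control and 40.5 and 46.6 CPM in lactate libraries. Its log2 fold change was -0.88 ± 0.15 (adjusted p = 0.0526), and its lactate level was 54.4% of control.

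The kinases of the route were not called. Pmvk, phosphomevalonate kinase, had 28.1 and 32.1 CPM in control and 20.1 and 24.7 CPM in lactate libraries (log2 fold change -0.43, adjusted p = 0.211). Mvk, mevalonate kinase, had 19.3 and 23.7 CPM in control and 17.1 and 19.5 CPM in lactate libraries, which overlapped (log2 fold change -0.23, adjusted p = 0.488). Fdps, which makes farnesyl diphosphate, had the highest FPKM of the 20 synthesis enzymes, with 98.3 and 117.3 in control and 77.4 and 82.3 in lactate libraries. Its log2 fold change was -0.52 (adjusted p = 0.119), and RSEM assigned it between 1.70 and 1.76 times its raw counts.

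Ggps1 had the highest fold change of the 20 enzymes. It makes geranylgeranyl diphosphate, the isoprenoid used for protein prenylation, and so lies on a branch that leaves the route to sterols. Its levels were 28.6 and 21.7 CPM in control and 39.0 and 29.1 CPM in lactate libraries. Both lactate values were above both control values, but the log2 fold change was 0.44 ± 0.22 (adjusted p = 0.284).

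Squalene and ring steps follow, in which 12 members take farnesyl diphosphate to cholesterol. edgeR called Fdft1 as lower (0.423% of all genes tested), and DESeq2 also Sqle, Lss, Msmo1 and Dhcr7 (3.13% of all genes). In edgeR 7 were lower at an unadjusted p-value under 0.05 and none was higher, against 11.4% and 11.7% of all genes tested. The median log2 fold change was -0.58. Fdft1 on chromosome 14 (63145150 to 63179578) encodes squalene synthase, the first enzyme committed to sterols. It had 150.5 and 150.8 CPM in control and 59.98 and 58.1 CPM in lactate libraries. The lactate values lay well below the control values, and the lactate mean was 39.2% of the control mean, with a log2 fold change of -1.35 ± 0.13 (adjusted p = 0.0313).

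Sqle and Lss act next on squalene. Sqle encodes squalene epoxidase, a rate-limiting enzyme of the route, and had 113.9 and 103.2 CPM in control and 66.9 and 63.2 CPM in lactate libraries, a log2 fold change of -0.74 ± 0.13 (adjusted p = 0.0563). Lss encodes the cyclase that closes the sterol ring and had 70.7 and 81.8 CPM in control and 36.8 and 45.1 CPM in lactate libraries, a log2 fold change of -0.90 ± 0.16 (adjusted p = 0.0571). For both genes all lactate values were below all control values, and both adjusted p-values were just above 0.05.

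Removal of the methyl groups of lanosterol is shared by several members. Msmo1, the sterol methyl oxidase, had 101.9 and 80.8 CPM in control and 50.4 and 36.2 CPM in lactate libraries, with a log2 fold change of -1.08 ± 0.21 (adjusted p = 0.0611). Like Idi1, it was over 2-fold lower and was called by DESeq2 but not by edgeR. Nsdhl, a dehydrogenase of these steps, had 40.5 and 32.1 CPM in control and 25.2 and 20.4 CPM in lactate libraries (log2 fold change -0.67, adjusted p = 0.115). Cyp51, the lanosterol demethylase, had 108.3 and 84.4 CPM in control and 73.8 and 62.9 CPM in lactate libraries (log2 fold change -0.50, adjusted p = 0.162). Neither gene had overlapping groups. Hsd17b7, the ketone reductase of the same steps, had 19.1 and 18.4 CPM in control and 24.4 and 19.0 CPM in lactate libraries. It was the lowest of the 20 enzymes in FPKM, its groups overlapped, and its log2 fold change was 0.21 ± 0.18.

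Among the last steps no gene was called by edgeR. Dhcr7, the reductase that gives cholesterol, had 71.0 and 68.7 CPM in control and 42.8 and 35.8 CPM in lactate libraries, a log2 fold change of -0.83 ± 0.15 (adjusted p = 0.0554). Sc5d, a sterol desaturase, had 38.1 and 28.3 CPM in control and 30.8 and 22.6 CPM in lactate libraries. Ebp, a sterol isomerase, had 22.2 and 27.9 CPM in control and 18.1 and 29.9 CPM in lactate libraries. The groups of both genes overlapped, and their log2 fold changes were -0.32 and -0.06. Lbr and Tm7sf2 encode alternative sterol reductases, and Lbr is also a protein of the inner nuclear membrane. Lbr had 131.8 and 133.2 CPM in control and 103.4 and 117.0 CPM in lactate libraries, a log2 fold change of -0.27 (adjusted p = 0.291). Tm7sf2 had a log2 fold change of -0.10, which was 0.011 in the RSEM expected counts, and RSEM assigned it between 0.610 and 0.684 times its raw counts.

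**Figure D2:**
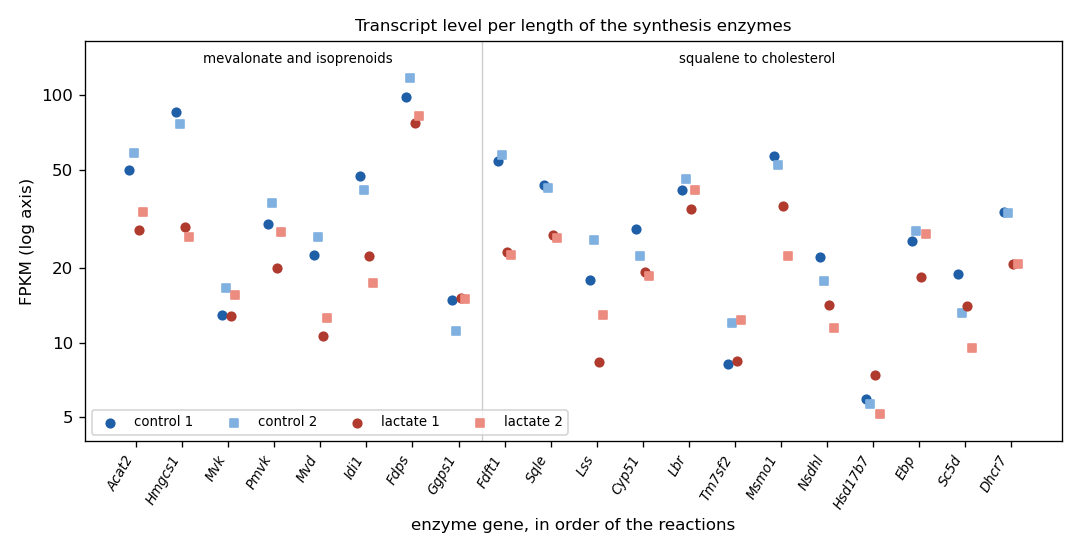
FPKM of the 20 synthesis enzymes (y axis, log scale) in each of the 4 libraries, with genes along the x axis in order of the reactions and a grey line between the isoprenoid and the squalene steps. Mean FPKM was lower with lactate for 17 of the 20 enzymes, and Ggps1, Tm7sf2 and Hsd17b7 are the exceptions. The share of all genes with a lower mean FPKM was not computed. By the fitted log2 fold change of edgeR, 18 of the 20 enzymes and 49.0% of all genes tested were lower.

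Summed over the 20 enzymes, FPKM was 718.6 and 740.9 in control and 448.3 and 462.9 in lactate libraries, so the transcripts of the route were at 62.4% of their control level. The median over the enzymes of the log2 CPM relative to the control mean was -0.56 in lactate replicate 1 and -0.67 in lactate replicate 2, and 0.01 and -0.01 in the control libraries. The mevalonate and isoprenoid genes summed to 361.4 and 384.5 FPKM in control and 216.2 and 231.6 FPKM in lactate libraries, and the squalene and ring genes to 357.1 and 356.4 FPKM against 232.1 and 231.3 FPKM. In both sums the groups did not overlap. Fdps had the highest mean FPKM in both groups. Hmgcs1 was second in control with a mean FPKM of 80.9 and had 28.1 with lactate, below Lbr with 38.0, Acat2 with 31.1 and Msmo1 with 29.0.

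**Figure D3:**
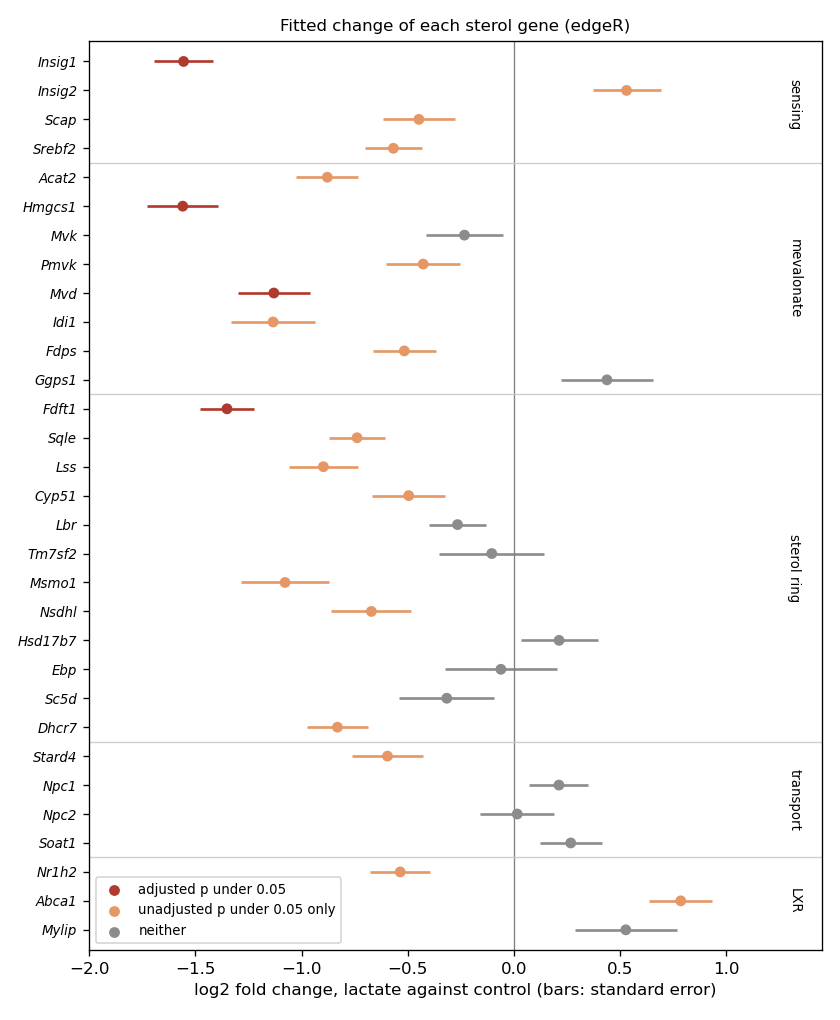
Fitted log2 fold change of each of the 31 genes, lactate against control (x axis), with bars of 1 standard error and genes on the y axis grouped by role. Red marks the 4 genes with an adjusted p-value under 0.05, orange the genes with an unadjusted p-value under 0.05 only, and grey the 11 genes with neither. Over all genes tested in edgeR, 0.423% were called as lower and 0.568% as higher. At an unadjusted p-value under 0.05, 11.4% were lower and 11.7% higher.

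Of the 4 genes for transport and storage, none was called by edgeR or DESeq2. Stard4 was lower at an unadjusted p-value under 0.05 in edgeR, where 11.4% of all genes tested were. The median log2 fold change was 0.11. Stard4, a sterol transfer protein of the cytosol whose gene is a target of SREBP2, had 73.2 and 87.6 CPM in control and 47.8 and 58.6 CPM in lactate libraries. Its log2 fold change was -0.60 ± 0.17 (adjusted p = 0.112). Npc1 and Npc2 release cholesterol from late endosomes and lysosomes. Npc1 had 47.9 and 48.2 CPM in control and 59.9 and 51.5 CPM in lactate libraries (log2 fold change 0.21), and Npc2 had 153.2 and 193.2 CPM against 158.0 and 192.1 CPM (0.02). Soat1, which esterifies cholesterol for storage, had 43.4 and 38.2 CPM in control and 52.1 and 46.2 CPM in lactate libraries (0.27). The groups overlapped for Npc2 only, and over all genes tested 25.9% were lower and 27.0% higher without overlap. The smallest adjusted p-value among Npc1, Npc2 and Soat1 was 0.329 (edgeR).

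Of the 3 genes of the LXR arm, none was called by edgeR and DESeq2 called Abca1 as higher, where it called 1.86% of all genes as higher. ABCA1 exports cholesterol to apolipoproteins, and Abca1 is a target of LXR. Its promoter window above holds a match to the letters of the LXR element, and whether that match acts here was not tested. Abca1 on chromosome 4 (53030787 to 53159895) had 19.7 and 18.9 CPM in control and 34.9 and 31.7 CPM in lactate libraries. Its mean was 1.72-fold higher, and the log2 fold change was 0.79 ± 0.15 (adjusted p = 0.0606 from edgeR, 0.0246 from DESeq2). In FPKM it had the lowest control level of the members, with 1.93 and 2.13 in control and 3.61 and 3.46 in lactate libraries.

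Mylip, another LXR target, encodes a ubiquitin ligase that marks lipoprotein receptors for breakdown. It had 12.6 and 8.64 CPM in control and 16.9 and 13.6 CPM in lactate libraries, a log2 fold change of 0.53 ± 0.24 (adjusted p = 0.253). Nr1h2, the gene of the receptor LXRβ, had the opposite sign, with 78.8 and 76.6 CPM in control and 58.2 and 49.1 CPM in lactate libraries and a log2 fold change of -0.54 ± 0.14 (adjusted p = 0.103). For each of the 3 LXR genes the groups did not overlap, and over all genes tested 25.9% were lower and 27.0% higher without overlap. The ratio of Hmgcs1 to Abca1 in FPKM was 44.3 and 35.8 in control and 8.14 and 7.75 in lactate libraries. These genes had the lowest and the highest fold change of the members, so the fall of their ratio follows from that choice and adds no further result.

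**Figure D4:**
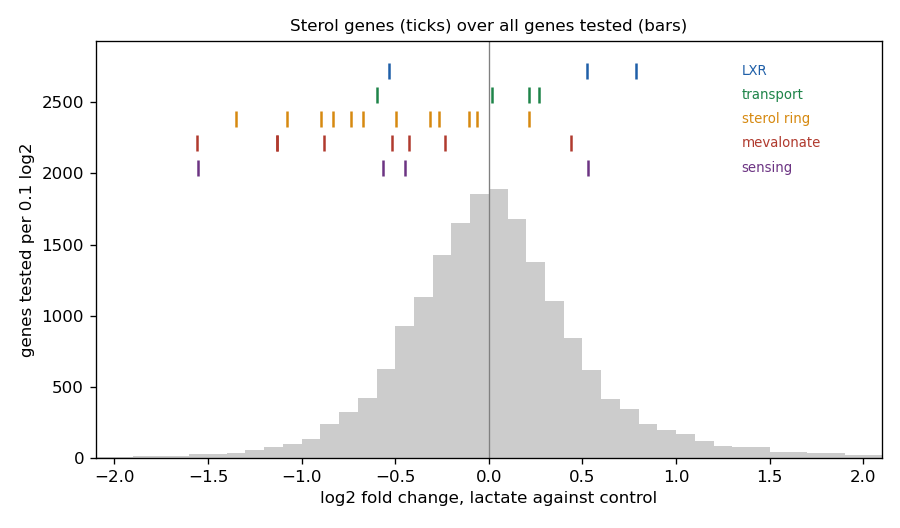
Distribution of the log2 fold change over the 18661 genes tested (grey bars, genes per 0.1 log2, within 2.1 of 0) and the fold changes of the 31 sterol genes (coloured ticks, 1 row for each role). Of the sterol genes, 23 lie below 0, where 49.0% of all genes tested lie.

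Neighbouring parts of sterol and lipid metabolism were followed with 4 further lists. SREBP1 and fatty acid synthesis had the lowest median log2 fold change of these lists, -0.37. In edgeR 2 of its 13 genes were called as lower, where 0.423% of all genes tested were. At an unadjusted p-value under 0.05 in edgeR, 6 were lower and 0 higher, against 11.4% and 11.7% of all genes tested. Scd2, a fatty acid desaturase, had the largest change, from 913.1 and 881.5 CPM to 400.0 and 410.5 CPM, a log2 fold change of -1.15 (adjusted p = 0.0406), and Fasn, fatty acid synthase, changed by -1.14 with the same adjusted p-value. DESeq2 called these and also Acly and Srebf1 as lower, where it called 3.13% of all genes as lower.

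Of 19 genes for lipoprotein uptake, sterol transfer and oxysterols, 18 were tested. Vldlr was called as higher by edgeR, where 0.568% of all genes tested were. Vldlr, a lipoprotein receptor, rose from 6.88 and 5.69 CPM to 21.8 and 21.04 CPM, a log2 fold change of 1.77 ± 0.18 (adjusted p = 0.0320). Its size was above that of each of the 31 members. At an unadjusted p-value under 0.05 in edgeR, 6 of the 18 were higher and 3 lower, against 11.7% and 11.4% of all genes tested. DESeq2 called Vldlr and Nceh1, a cholesteryl ester hydrolase, as higher, where it called 1.86% of all genes as higher.

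No gene was called by edgeR or DESeq2 among 11 genes for SREBP cleavage and sterol-regulated degradation or among 13 genes for isoprenoid use. At an unadjusted p-value under 0.05 in edgeR, the first list had 1 gene lower and 2 higher, and the second had 1 higher. Of all genes tested, 11.4% were lower and 11.7% higher at that level. Pggt1b, a subunit of a prenyltransferase, had the largest log2 fold change of the genes for isoprenoid use, 0.40 ± 0.13 (adjusted p = 0.141). The median log2 fold change of each list was 0.06, close to that of all genes.

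How reads were assigned bears on some members. In GENCODE release M21, 15 members overlap another annotated gene. Of these, 12 overlap one on the opposite strand, among them Hmgcs1, Mvd, Idi1 and Fdft1. Srebf2, Fdps and Tm7sf2 overlap genes on the same strand only, which strand could not separate. Insig1 overlaps none on either strand. The sources used here do not say whether counting used strand, so reads of opposite-strand partners cannot be told apart either. For 28 members the RSEM expected counts were within 1.5-fold of the raw counts in every library, and the exceptions were Idi1, Fdps and Tm7sf2. In the RSEM expected counts Insig1, Hmgcs1 and Fdft1 had log2 fold changes of -1.54, -1.60 and -1.38, and each was called.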

How the data were processed

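RNA-seq libraries of AB2.2 ESCs were analysed, 2 control and 2 lactate. Per the labels, the authors trimmed reads with cutadapt 1.16, mapped them with STAR to mm10 and ran RSEM, and their methods name GENCODE release M23. They deposited raw counts per gene and, for each library, RSEM expected counts, TPM and FPKM. TPM was not used. Rows of 1153 transposable element families were left out.

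Counts were tested with edgeR 4.0.16 in R 4.3.3 (filterByExpr, TMM, quasi-likelihood test in its legacy form, no replicate term), with Benjamini-Hochberg adjustment over 18661 genes. The threshold for a call was 0.05. Standard errors are the log2 fold change divided by the square root of F. CPM use TMM-scaled library sizes. Alternatives were DESeq2 1.42.0, limma 3.58.1 (trend) on log2 FPKM with 1 or 0.1 added, for mean FPKM above 0.1, RSEM expected counts rounded to whole numbers, other scalings and filters, a replicate term, and each library left out. Tests were tried on simulated counts, and the outcome is not reported here. Same-group libraries differed beyond counting noise (chi-square over its degrees of freedom, 32.2 and 31.4), so each was kept.

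The members and gene lists were chosen with earlier results of these data known. All members are named, and of the other lists the called genes and the gene with the largest change, of which 1 is not reported here. Nceh1, Acly, Srebf1 and Col3a1 were named after their values were seen. Positions are from GENCODE release M21 on GRCm38, which held all 31 members.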

Additional observations from a re-analysis of the deposited data

How the results depend on the processing

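The 4 members called as lower became 11 with DESeq2, 6 with DESeq2 over 2-fold (chosen after seeing the data), 14 without a filter on low counts and 0 with limma-trend at either pseudocount, and 3 to 11 when libraries were left out in turn. The 0 members called as higher became 1 with DESeq2 and 1 without the filter, and 0 to 1 with a library left out. Members higher at an unadjusted p-value under 0.05 were 2, and 4 with the libraries scaled by totals alone (14.6% of all genes higher), and 1 to 3 with a library left out (7.29% to 10.4%). Over all genes, the 185 calls became 846 with DESeq2, 1647 without the filter, 44 in the RSEM expected counts, 0 with limma-trend, and 84 to 1382 with a library left out. The 3 calls in the other lists became 6 with DESeq2, 8 without the filter, 1 in the RSEM expected counts, 0 with limma-trend, and 2 to 6 with a library left out. The median log2 fold change of the enzymes, -0.59, was -0.53 with totals alone and with limma-trend on log2(FPKM + 1), -0.67 without Idi1, Fdps and Tm7sf2 (chosen after seeing the data), and -0.73 to -0.57 with a library left out. The causes were not tested.

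Replicate numbers are shared by the groups, and same-numbered libraries deviated together (Pearson r = 0.638 across genes), but the labels do not say what a number marks. With a replicate block, 20 members were called as lower and 6 as higher, where 22.5% and 22.0% of all genes were, 6 members were higher at an unadjusted p-value under 0.05 (25.7% of all genes), 31 genes of the other lists were called, and 8297 of all genes were called.

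Signs turned for 4 members near 0. Ebp was 0.0085 with totals alone and -0.47 to 0.23 with a library left out. Hsd17b7 was -0.0061 to 0.38 with a library left out. Npc2 was -0.0045 with DESeq2, -0.0015 with limma-trend and -0.028 without the filter, and -0.16 to 0.19 with a library left out. Tm7sf2 was 0.011 in the RSEM expected counts, 0.032 and 0.035 with limma-trend at pseudocounts of 1 and 0.1, and -0.36 to 0.15 with a library left out. Every member had at least 164 reads in each library, and whether depth or the 2 libraries a group set the number of calls was not tested.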
